A study of Drosophila melanogaster with 80 samples.

Results

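The Delta class of glutathione transferases in Drosophila melanogaster is described here through the 10 genes GstD1 to GstD10, taken by gene symbol from an expression array of whole flies. All 10 had exactly 1 probe set carrying that symbol alone, out of 11982 genes measured. Glutathione transferases join the small peptide glutathione to reactive compounds, which makes these compounds more soluble and easier to excrete, and some members also reduce peroxides. Insects carry several classes, of which Delta and Epsilon are expanded in insects and are best known for their part in insecticide resistance. The oxidative stress factor CncC, the fly counterpart of Nrf2, and its inhibitor Keap1 control transcription of GstD1, whose upstream region is widely used to drive reporters of oxidative stress in fly tissues.

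In the current annotation (Release 6) the genes lie in 1 cluster on chromosome arm 3R, in the order GstD10, GstD9, GstD1, GstD2, GstD3, GstD4, GstD5, GstD6, GstD7 and GstD8, with the non-coding gene lncRNA:CR46015 between GstD1 and GstD2. GstD11, which lies beyond CG10035 on the GstD8 side, was counted among the other glutathione transferases. GstD1 encodes the abundant enzyme known for breaking down DDT, and GstD3 encodes a form that lacks the amino-terminal stretch with the catalytic serine of the class. Individual roles of GstD4 to GstD10 are less well established. Close relatives of this kind share sequence, and whether a probe set also bound transcripts of a neighbouring member was not tested.

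Whole adult flies of the wild-type laboratory strain Oregon R, with no transgene or mutation, made up 20 groups of 4 samples, each hybridised to its own Affymetrix Drosophila Genome 2.0 array (80 arrays). F0 flies, virgin females or unmated males aged 3 to 4 days, were kept 30 to a vial at 25 °C and fed for 14 days, the medium being changed on day 7. Control medium held 0.15 M sucrose (CD) and high-sucrose medium 1 M (HSD), which gave 4 groups by sex and diet. F1 and F2 flies descended from F0 males on either diet and ate CD or HSD themselves on the same schedule, which gave 8 groups in each generation by sex, own diet and ancestral diet. The labels give neither the diet of the F1 parents of the F2 flies nor whether arrays of 1 group stand for different vials, so p-values measure the spread between these arrays, which may be technical. In RNA from whole flies, fewer cells of a type and less RNA per cell cannot be told apart.

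Values are log2 signals, on which 1 unit is a doubling. The spread of values was nearly the same among arrays within each of 10 sets of 8 (median range of sorted values 0.04 to 0.11) and differed over all 80 arrays (1.15), so the sets were treated as normalized separately: males and females of F0, and in F1 and in F2 every pairing of a sex with its own diet. Array medians ran from 5.16 to 7.34 and differed between sets. The labelled sex was checked with the yolk protein gene Yp1, lowest at 14.19 in female arrays and highest at 11.65 in male arrays, and with the testis gene Mst87F, highest at 5.85 in female arrays and lowest at 11.29 in male arrays. Transcripts limited to the other sex stood more than 0.5 above the lowest array of the set in 6 arrays, all with HSD ancestry: 2 of CD-fed F1 males, 1 of HSD-fed F1 females and 3 of HSD-fed F2 males. Results that rest on these 6 arrays are given with and without them. Some arrays that were kept stood not far under that limit, of either ancestry. They include, with CD ancestry, replicate 4 of HSD-fed F1 males (0.39) and replicate 1 of HSD-fed F1 females (0.38). With HSD ancestry they include replicate 3 of HSD-fed F2 males (0.38).

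GstD1 gave the strongest signal of the 10 probe sets, with group means from 12.98 to 13.73, above 99.4% of genes on the array, and small differences there are read near the top of the scale. GstD9 (8.98 to 10.71) and GstD3 (8.43 or more) followed, and the signals of different probe sets are not a measure of relative transcript number. GstD8 had group means from 5.26 to 9.11, GstD2 from 6.08 to 8.85, GstD5 from 3.82 to 7.81, GstD10 from 5.70 to 8.13 and GstD7 from 4.55 to 7.47. GstD4 was dim, between 3.81 and 5.33. GstD6 stayed between 3.45 and 4.29, too dim for the filter (the 25th percentile over probe sets) in each comparison, and was therefore not tested in any.

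**Figure D1:**
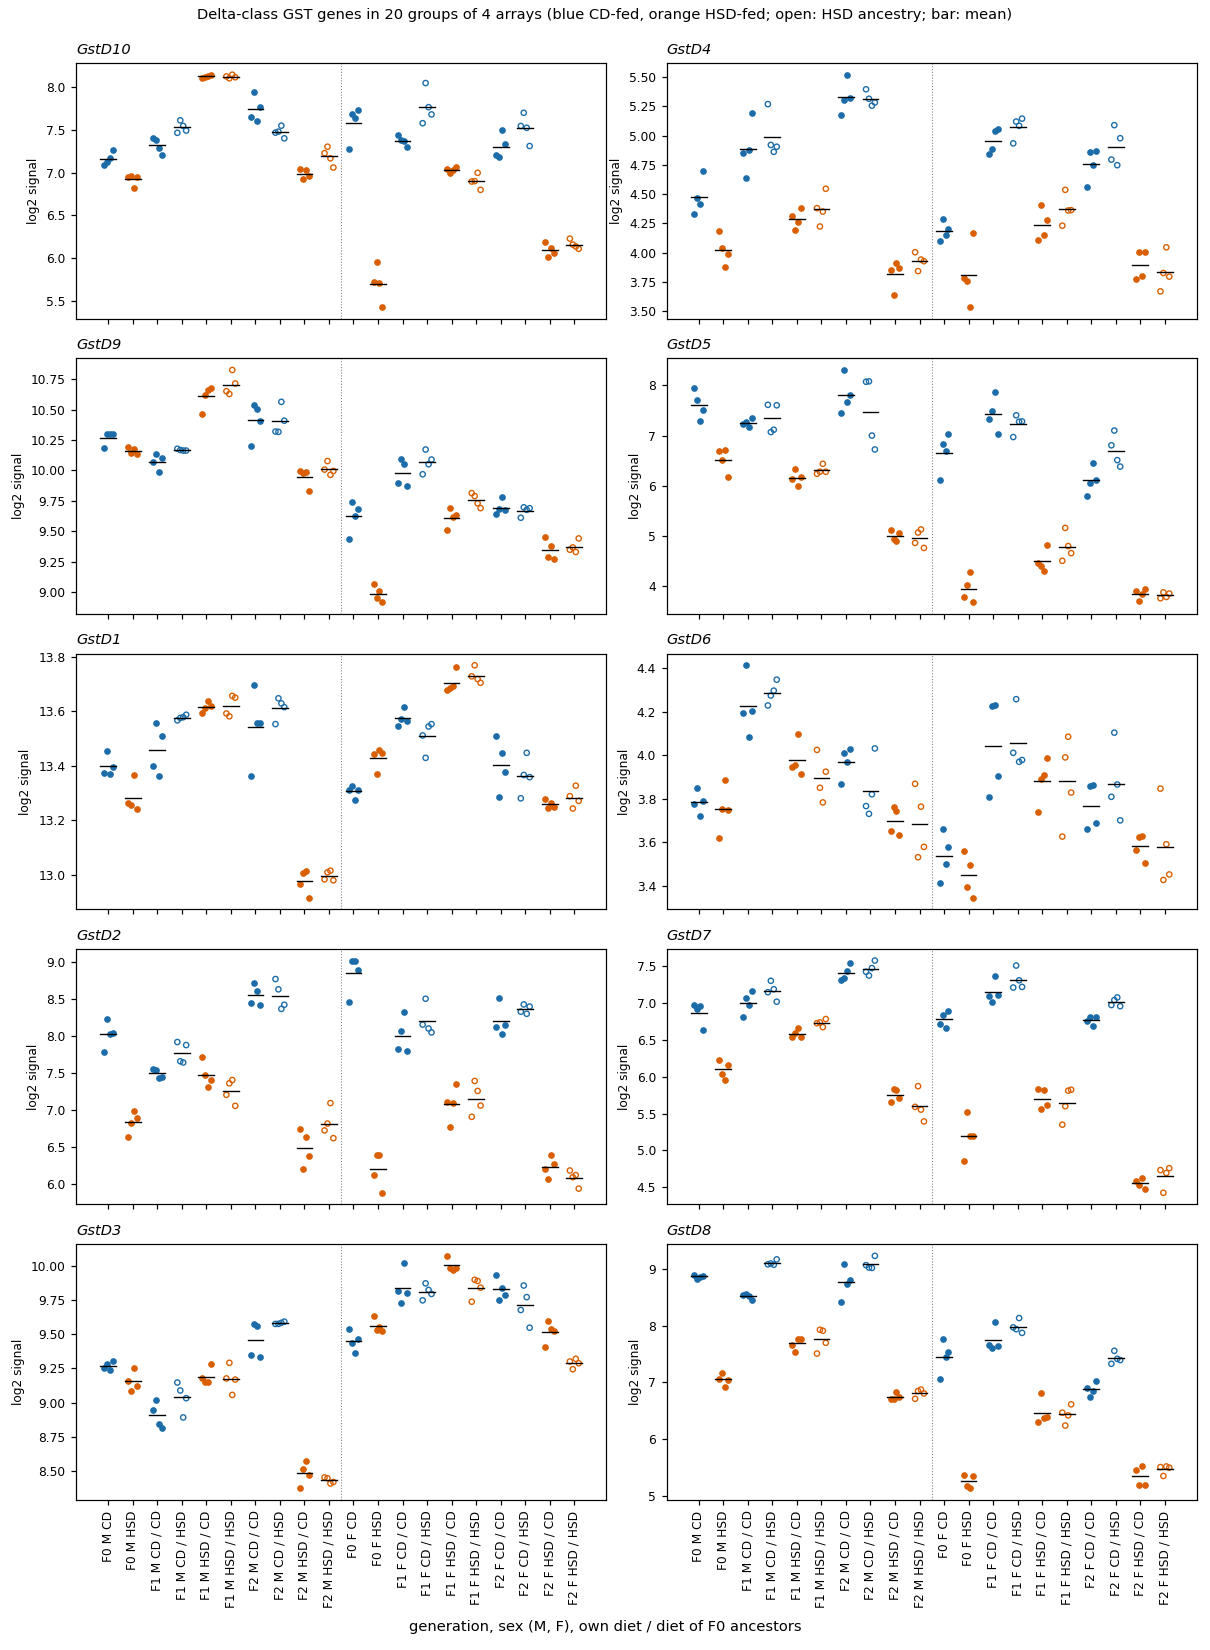
Each panel plots the log2 signal (vertical axis) of 1 gene on every array of the 20 groups (horizontal axis: generation, sex, own diet and ancestral diet), 4 points a group with the group mean as a bar; CD-fed groups are blue, HSD-fed groups orange, groups of HSD ancestry open. GstD8 and GstD5 lie lower in the orange groups of each generation and sex, whereas GstD1 stays between 12.92 and 13.77; levels of different sets were normalized separately.

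The first comparison asked how F0 males that ate the high-sucrose diet differed from males on the control diet. GstD8 measured 8.90, 8.82, 8.87 and 8.88 in the 4 CD arrays and 7.07, 7.17, 6.93 and 7.05 in the 4 HSD arrays. All HSD arrays lay far below all CD arrays, with little spread within a diet. The log2 change was -1.81 (SE 0.05, adjusted p = 2.67e-08, limma), a 3.51-fold fall with rank 5 from the lowest change among 10983 genes tested.

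GstD2, whose product is known to act on plant isothiocyanates, read 7.79, 8.23, 8.03 and 8.03 on CD and 6.64, 6.82, 6.98 and 6.89 on HSD. GstD5 read 7.94, 7.72, 7.30 and 7.50 on CD and 6.68, 6.52, 6.72 and 6.17 on HSD. In both genes every HSD array was under every CD array, and GstD5 varied more from array to array than GstD8. GstD2 changed by -1.19 (SE 0.10, adjusted p = 2.69e-05) and GstD5 by -1.09 (SE 0.15, adjusted p = 6.86e-04), falls of 2.28-fold and 2.13-fold.

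GstD7 fell by 0.77 on the log2 scale (SE 0.085), from 6.87 ± 0.16 to 6.10 ± 0.12 (SD, n = 4 arrays, as for all means below). The dim GstD4 fell by 0.45 (SE 0.08) and GstD10 by 0.24 (SE 0.05), with no overlap between diets in any of these 3 genes. GstD1 (-0.12, adjusted p = 0.0536), GstD3 (-0.11, adjusted p = 0.0716) and GstD9 (-0.11, adjusted p = 0.0609) did not pass, although the GstD1 arrays of the diets did not overlap. Leaving out 1 array brought each of these 3 past the threshold: HSD replicate 3 for GstD1 (adjusted p = 0.0172) and GstD3 (adjusted p = 0.0169), and CD replicate 1 for GstD9 (adjusted p = 0.0209).

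Of the 9 members tested in F0 males, 6 were thus lower and 0 higher at an adjusted p under 0.05. Among all genes tested in F0 males 30.5% passed in either direction and 11% were lower. The median change was -0.45 over the 9 members and 0.01 over all genes. Of the 9 members, 5 lay below the 5th percentile of all changes, which was -0.30.

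In F0 females on the high-sucrose diet the falls of several members were larger on the log2 scale. GstD5 read 6.11, 6.83, 6.69 and 7.03 on CD and 3.79, 4.03, 4.28 and 3.69 on HSD. The HSD arrays lay around the 25th percentile of all probe sets, 3.76, so that the size of this fall is limited by the lower end of the scale. The change was -2.72 (SE 0.20, adjusted p = 8.47e-06), or 6.57-fold.

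GstD2 read 8.46, 9.02, 9.02 and 8.89 on CD and 6.12, 6.39, 6.38 and 5.87 on HSD, a change of -2.66 (SE 0.15, adjusted p = 1.89e-06) or 6.30-fold. GstD8 read 7.05, 7.76, 7.45 and 7.54 on CD and 5.37, 5.18, 5.14 and 5.36 on HSD, a change of -2.19 (SE 0.13, adjusted p = 2.86e-06) or 4.57-fold. Both genes separated the diets completely, with a wide gap between the nearest arrays.

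GstD10 read 7.28, 7.69, 7.64 and 7.73 on CD and 5.72, 5.96, 5.70 and 5.43 on HSD, and changed by -1.89 (SE 0.13, adjusted p = 5.17e-06). GstD7 read 6.72, 6.84, 6.66 and 6.89 on CD and 4.86, 5.53, 5.19 and 5.19 on HSD, and changed by -1.59 (SE 0.12, adjusted p = 1.46e-05). Neither gene had an HSD array near the CD arrays. GstD9 fell by 0.64 (SE 0.07, adjusted p = 9.86e-05), from 9.62 ± 0.13 to 8.98 ± 0.07, again without overlap.

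GstD4 and GstD1 passed narrowly in F0 females, in opposite directions. GstD4 changed by -0.37 (SE 0.12, adjusted p = 0.0292) with overlapping arrays, since 1 HSD array stood at 4.17 against 3.54 to 3.78 in the other HSD arrays and 4.10 to 4.29 on CD. GstD1 read 13.31, 13.33, 13.28 and 13.31 on CD and 13.44, 13.37, 13.46 and 13.45 on HSD, a rise of 0.12 (SE 0.04, adjusted p = 0.0293). The GstD4 call ended without any 1 of CD replicates 2, 3 and 4 and HSD replicates 1, 2 and 3 (adjusted p 0.0542 to 0.0757). The GstD1 call ended without any 1 of CD replicates 1, 3 and 4 and HSD replicates 3 and 4 (adjusted p 0.055 to 0.0842), and after quantile normalization (0.0807). GstD3 was 0.11 higher and did not pass (SE 0.05, adjusted p = 0.102).

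Of the 9 members tested in F0 females, 7 were lower and 1 was higher. Among all genes tested in F0 females 41.3% passed in either direction and 18.2% were lower. The median change was -1.59 over the members and 0.02 over all genes. Of the members, 6 lay below the 5th percentile of all changes, -0.56.

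**Figure D2:**
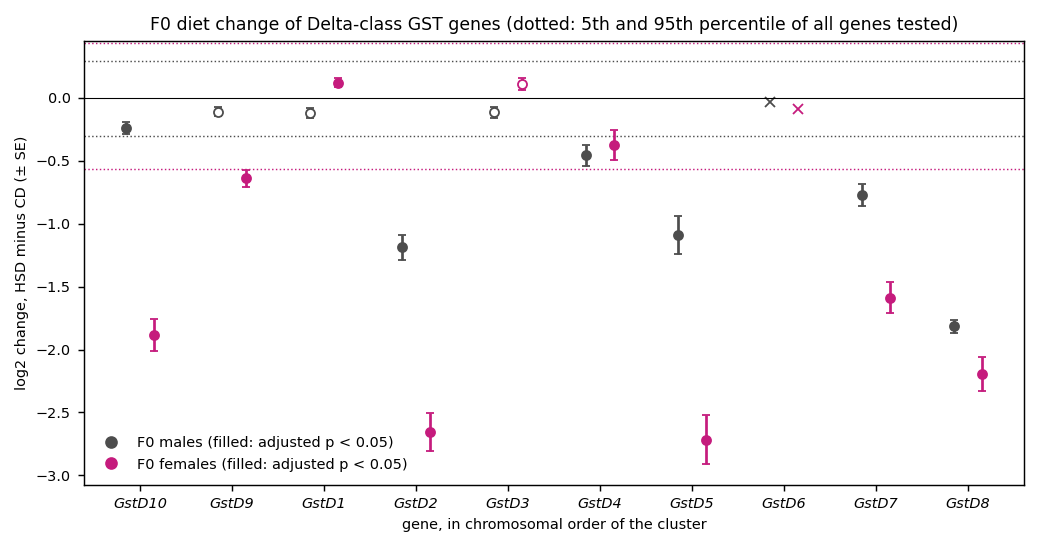
Log2 change on HSD against CD (vertical axis, ± SE, n = 4 arrays a group) of each gene in F0 males (grey) and F0 females (magenta), in cluster order; filled points passed an adjusted p under 0.05, crosses mark the untested GstD6, and dotted lines the 5th and 95th percentile of all genes tested in that sex. GstD5 (-2.72) and GstD2 (-2.66) in females are the lowest points, while GstD1, GstD3 and GstD9 in males lie within 0.12 of 0; the order of the sexes for GstD8 turned after quantile normalization.

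The difference between the sexes in the F0 diet change was tested directly, as the female change minus the male change. It passed for 7 of the 9 members, against 30.3% of all genes. GstD10 (-1.65, SE 0.14, adjusted p = 5.30e-07) and GstD5 (-1.62, SE 0.27, adjusted p = 3.41e-04) had the most negative differences, that is, larger falls in females than in males. GstD2 (-1.47), GstD7 (-0.82) and GstD9 (-0.53) also passed as negative, and GstD1 (0.24) and GstD3 (0.22) as positive, their changes being positive in females and negative in males.

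The 2 sexes were normalized separately and their signal scales differed, with a median over probe sets of 6.62 in F0 males and 5.43 in F0 females. When all 16 arrays were quantile normalized together, the difference for GstD10 was -0.98 (adjusted p = 2.83e-05) and that for GstD5 -1.21 (adjusted p = 0.00649), and the differences for GstD2 (-0.37, adjusted p = 0.18) and GstD7 (-0.32, adjusted p = 0.166) no longer passed. For GstD8 the difference of -0.38 (SE 0.15, adjusted p = 0.0694) turned to 0.71 (adjusted p = 7.15e-04), so the data do not settle in which sex GstD8 fell more. As a rank within the array, GstD8 dropped from above 70.4% to above 38.9% of genes in males and from 48.3% to 33.9% in females. The difference for GstD4 was 0.08 (SE 0.15, adjusted p = 0.722).

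Markers of tissues that express detoxification genes were read on the same F0 arrays. Among all genes tested there, 19.5% rose and 11% fell in males, and 23.1% rose and 18.2% fell in females. Of 11 measured midgut genes, digestive proteases and lysozymes among them, 6 rose and 0 fell in males and 7 rose and 2 fell in females. Their mean level lay between 10.79 and 10.99 on CD and between 11.09 and 11.25 on HSD in male arrays, and between 10.30 and 10.38 and between 10.86 and 11.32 in female arrays. Of 10 Malpighian tubule genes, markers of the fly kidney, 0 rose and 2 fell in males and 3 rose and 3 fell in females. Their mean lay between 9.06 and 9.08 on CD and between 8.91 and 9.03 on HSD in male arrays, lower without overlap. In female arrays it lay between 8.22 and 8.39 on CD and between 8.26 and 8.44 on HSD. Of 8 fat body genes 3 rose and 1 fell in males (means 10.51 to 10.56 on CD, 10.48 to 10.57 on HSD) and 2 rose and 2 fell in females (9.44 to 9.58 on CD, 9.21 to 9.37 on HSD). Of 12 male germline and accessory gland genes 7 rose and 0 fell in males, with means of 11.21 to 11.30 on CD and 11.36 to 11.41 on HSD. Of 15 female marker genes 3 rose and 2 fell in females, with a median change of 0.42 and means of 12.12 to 12.74 and 12.70 to 12.95. The part of tissue makeup in the GstD changes was not tested.

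Other genes of the glutathione and detoxification system were counted from lists chosen with earlier results of these data known. Of 27 other glutathione transferases 12 fell and 3 rose in F0 males, and 14 fell and 1 rose in F0 females. The Epsilon-class GstE7 fell by 0.52 in males and by 0.80 in females, GstE1 by 0.37 and by 0.58, and the Omega-class GstO2 by 0.49 in males. The median change of the list was -0.15 in males and -0.12 in females, nearer 0 than the medians of the Delta genes.

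Enzymes that supply glutathione were also counted. Of 5 such genes 3 fell in males and 4 in females, and none of the 5 rose. Cth, the cystathionine lyase that makes cysteine from methionine sulphur, fell by 0.77 in males and by 0.46 in females. Gclm, the modifier subunit of the ligase that starts glutathione synthesis, fell by 0.36 and by 0.14, and Cbs, the synthase upstream of Cth, by 0.33 and by 0.26. Gclc, the catalytic subunit of that ligase, fell by 0.22 in females.

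Of 11 antioxidant genes (thioredoxin system, peroxiredoxins, catalases and superoxide dismutases) 2 fell and 3 rose in males, and 5 fell and 3 rose in females. The median change of these 11 genes was -0.05 in males and -0.04 in females, beside 0.01 and 0.02 over all genes. Of all genes 30.5% passed in males and 41.3% in females. Among the listed genes that fell were the peroxiredoxin gene Prx6c (by 0.97) and the catalase gene Cat (by 0.36) in females. Irc, a secreted catalase of the gut, fell by 0.30 in males and by 0.45 in females. The count of 8 was 5 without CD replicate 4 or HSD replicate 2 in females. Of the other detoxification genes, mainly cytochrome P450s, 15 fell and 1 rose of 19 tested in males, and 14 fell and 1 rose of 20 tested in females. The P450 gene Cyp28d1 fell by 0.66 in males and fell by 1.57 in females, and Cyp12d1-d fell by 0.90 in males and fell by 1.23 in females.

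Regulators of these genes were read one by one. In males cnc, which encodes CncC, changed by -0.02 (adjusted p = 0.736) and its partner maf-S by -0.04 (adjusted p = 0.506), while Keap1 rose by 0.11 (SE 0.04, adjusted p = 0.0388). In females cnc fell by 0.24 (SE 0.06, adjusted p = 0.011), Keap1 fell by 0.15 (SE 0.04) and maf-S rose by 0.30 (SE 0.07). Hr96, a nuclear receptor that responds to foreign compounds, changed by -0.09 in males (adjusted p = 0.183) and fell by 0.50 in females (SE 0.05). Of the 6 regulators measured, 3 passed in males (1 higher, 2 lower) and 6 in females (1 higher, 5 lower). The 2 that were lower in males are not among those named here. Of all genes 30.5% passed in males and 41.3% in females. The male count was 1 when all 80 arrays were fitted together, and 1 without any 1 of CD replicates 1, 2 and 3 and HSD replicates 2, 3 and 4.

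The second question was how the members stood in F1 and F2 flies on the 2 diets. CD-fed and HSD-fed groups there lie in separately normalized sets with a batch label each, so own diet and batch cannot be told apart, no test was made, and levels are given side by side. GstD8 averaged 8.52 on CD and 7.69 on HSD in F1 males of CD ancestry, and 9.11 and 7.76 with HSD ancestry. In F1 females it averaged 7.74 and 6.47 with CD ancestry, and 7.98 and 6.44 with HSD ancestry. The lower HSD levels thus stood beside a median of all genes that was 0.33 to 0.42 higher in the HSD sets of F1.

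In F2 males GstD8 averaged 8.76 on CD and 6.75 on HSD with CD ancestry, and 9.09 and 6.81 with HSD ancestry. In F2 females the averages were 6.88 and 5.34, and 7.42 and 5.47. In F2 the median of all genes was 0.12 to 0.36 lower in the HSD sets. GstD8 was below the CD arrays in every HSD array in 8 of 8 pairs of groups with the same generation, sex and ancestry, and so were GstD4, GstD5 and GstD7. The HSD means of GstD4 lay between 3.82 and 4.38, at the lower end of the scale, where the 25th percentile of these sets lay between 3.91 and 4.68, so the size of its falls is limited. Of all 11982 genes 3.57% had this pattern in all 8 pairs, and between 13.5% and 61% were lower without overlap in a single pair. Marker levels of these sets differed too. The midgut mean was 11.36 on CD and 10.98 on HSD in F1 males of CD ancestry and 11.60 and 10.42 in such F2 males, against 10.47 and 10.90 in F1 females and 10.44 and 10.54 in F2 females. The fat body mean was 10.45 and 11.12 in these F1 males and 10.53 and 10.33 in these F2 males. In females of CD ancestry it was 9.94 and 10.22 in F1, and 9.81 and 9.41 in F2. With CD ancestry the Malpighian tubule mean was 9.24 and 9.46 in F1 males and 9.22 and 8.66 in F2 males. In females it was 8.76 and 8.77 in F1, and 8.46 and 8.18 in F2. The part of these marker differences was not tested.

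GstD5 differed most between the sets on the log2 scale, from 7.43 on CD to 4.50 on HSD in F1 females of CD ancestry. The 25th percentile of probe sets in that HSD set was 4.36, so the size of this difference is limited by the lower end of the scale. In F1 males of HSD ancestry GstD5 went from 7.35 to 6.31. GstD7 differed by -0.42 in F1 males of CD ancestry and by -2.36 in F2 females of HSD ancestry. Ranks within an array do not depend on the scale of a set in the same way, and by rank all of GstD2, GstD3, GstD4, GstD5, GstD7 and GstD8 were lower without overlap in 8 of 8 pairs, a pattern that 6.43% of all genes had. On the log2 scale GstD2 was lower without overlap in 7 pairs, the exception being F1 males of CD ancestry (7.50 on CD, 7.47 on HSD). GstD3 was lower without overlap on that scale in only 4 pairs. It was higher in 1, F1 males of CD ancestry (8.91 on CD, 9.19 on HSD). In F0 the mean rank of GstD3 went from 77.2% on CD to 74.7% on HSD in males, and from 76.1% to 78.0% in females.

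In F1 males GstD10 had higher log2 levels in the HSD sets, as most genes had. With CD ancestry it read 7.40, 7.38, 7.29 and 7.21 on CD and 8.11, 8.12, 8.14 and 8.15 on HSD, higher in every HSD array, and its rank went from above 40.8% to above 45.7% of genes. With HSD ancestry it averaged 7.53 on CD and 8.12 on HSD, beside a rise of 0.41 in the median of all genes, and its ranks overlapped (44.5% and 45.7%). With CD ancestry it averaged 7.37 on CD and 7.04 on HSD in F1 females, in F2 females 7.31 and 6.09, and in F2 males 7.74 and 6.99. GstD1 was lower without overlap in 3 pairs and higher in 3, and GstD9 lower in 6 and higher in 2. All these higher pairs were of F1, where between 58.7% and 65.7% of all genes were higher without overlap, and by rank the 2 higher pairs of GstD9 overlapped. The lower pairs of GstD1 were of F2, where between 42.4% and 61% of all genes were lower without overlap. By rank GstD1 was lower without overlap in 2 pairs and higher in 4, F2 females of CD ancestry being among the higher. GstD9 was lower by rank in 4 pairs, and its F2 male pairs overlapped.

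**Figure D3:**
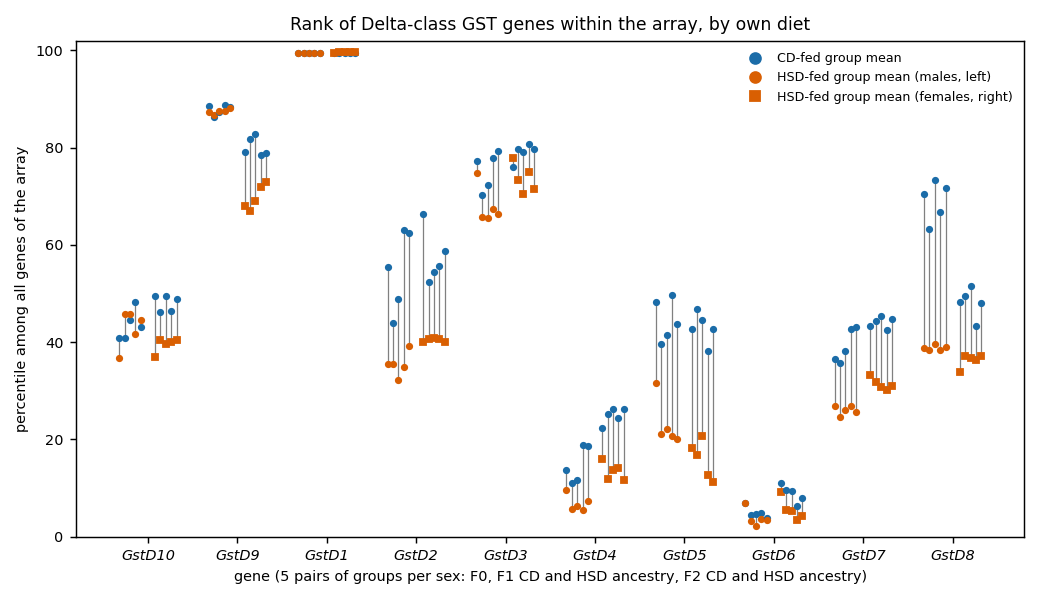
Percentage of genes on the array with a lower or equal signal (vertical axis, group means) for each gene, joining the CD-fed (blue) and HSD-fed (orange) group of each of 5 pairs a sex, males left and females right: F0, then F1 and F2 by ancestry. GstD8 in males goes from between 63.3% and 73.4% on CD to between 38.3% and 39.7% on HSD, and GstD1 stays between 99.4% and 99.6% throughout; outside F0 each diet is its own batch.

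The third question concerned ancestry: flies with HSD-fed F0 ancestors against flies with CD-fed ones, at equal sex, generation and own diet. These groups share a set, so they were tested. In CD-fed F1 males GstD8 read 8.54, 8.56, 8.52 and 8.46 with CD ancestry and 9.08, 9.10, 9.08 and 9.17 with HSD ancestry. The ancestries were well apart, at a spread of 0.04 within each. The rise of 0.59 (SE 0.05, adjusted p = 2.52e-04) passed in all 16 alternative runs, and without the 2 arrays that carried female transcripts it was 0.57 (adjusted p = 0.00598).

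GstD2 in the same flies read 7.56, 7.54, 7.43 and 7.45 with CD ancestry and 7.92, 7.66, 7.64 and 7.88 with HSD ancestry. The groups did not overlap, and its 2 highest values came from the 2 arrays that carried female transcripts. The rise of 0.28 (SE 0.07, adjusted p = 0.0473) passed in 6 of 16 alternative runs and was 0.15 without those arrays (adjusted p = 0.375). Leaving out any 1 of the 4 CD ancestry arrays or of HSD ancestry replicates 1 and 4 also ended it (adjusted p 0.0585 to 0.127).

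GstD8 and GstD2 were the 2 of 9 members that passed in CD-fed F1 males, where 4.51% of all genes passed. All 9 had a positive change, with a median of 0.13 against 0.01 over all genes, and 5 were higher with no overlap between ancestries, as were 9.28% of all genes. The mean of 15 female marker genes lay between 5.48 and 5.57 in the CD ancestry arrays and between 5.64 and 6.64 in the HSD ancestry arrays. Of 27 other glutathione transferases 5 rose, GstE1 by 0.31 and GstT4 by 0.29 among them, and of 19 other detoxification genes 4 rose. Both counts were 0 without the 2 arrays with female transcripts. That run kept 2 HSD ancestry arrays and called 58 of 10858 genes, against 489 of 10835 with all arrays. Leaving out CD ancestry replicate 1, 3 or 4 or HSD ancestry replicate 1 or 4 brought the glutathione transferase count to between 0 and 2. Leaving out these or HSD ancestry replicate 2 brought the count of other detoxification genes to 1 or 2.

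In HSD-fed F1 males none of 8 members tested passed with limma. Across all genes 0% passed, with 1277 genes (11.7%) and 2 of 8 members at an unadjusted p under 0.05, and no member passed under any alternative run. GstD8 averaged 7.69 ± 0.11 with CD ancestry and 7.76 ± 0.20 with HSD ancestry. The difference between the own diets in the ancestry change of GstD8 was -0.51 (SE 0.11, adjusted p = 0.0171), and that of GstD2 was -0.50 (SE 0.13, adjusted p = 0.0396), these being the 2 members called among 3.75% of all genes. Without the 2 arrays that carried female transcripts the difference was -0.49 for GstD8 (adjusted p = 0.0743) and -0.37 for GstD2 (adjusted p = 0.2). That run called 135 of 11172 genes, against 418 of 11157 with all arrays. The GstD2 call also ended without any 1 of 10 arrays (0.0557 to 0.0824). These were, among CD-fed flies, CD ancestry replicates 1, 3 and 4 and HSD ancestry replicates 1 and 4, and among HSD-fed flies, CD ancestry replicates 1, 2 and 4 and HSD ancestry replicates 1 and 4.

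Averaged over own diets, the ancestry change of GstD8 in F1 males was 0.33 (SE 0.05, adjusted p = 0.00257), which passed in 24 of 24 alternative runs. It was the only 1 of 9 members called in that fit, in which 5.06% of all genes passed.

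In CD-fed F1 females GstD10 read 7.44, 7.39, 7.37 and 7.30 with CD ancestry and 7.58, 8.05, 7.77 and 7.68 with HSD ancestry. The groups did not overlap, and the HSD ancestry arrays spread more widely. GstD10 rose by 0.40 (SE 0.09, adjusted p = 0.0465) as 1 of 9 members, where 2.64% of all genes passed, and it passed in 6 of 15 alternative runs. The call ended without any 1 of the 4 CD ancestry arrays or of HSD ancestry replicates 3 and 4 (adjusted p 0.0664 to 0.133). In the same comparison 6 of 11 midgut marker genes rose, their mean lying between 10.40 and 10.53 with CD ancestry and between 10.83 and 11.14 with HSD ancestry, and their part in the GstD10 change was not tested.

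In HSD-fed F1 females none of the 9 members passed with limma, where 4.07% of all genes did. An unadjusted p under 0.05 was found for 3 of them and for 18.4% of all genes. GstD3 was 0.16 lower without overlap (adjusted p = 0.0772) and passed under 3 other settings. Of the other detoxification genes 7 of 19 rose in these flies, and 3 did so without HSD ancestry replicate 1, the array that carried male transcripts. That count was also 3 without CD ancestry replicate 1, 2 or 3 or HSD ancestry replicate 3, and 4 without HSD ancestry replicate 4. The ancestry change of GstD10 differed between the own diets by -0.53 (SE 0.11, adjusted p = 0.0125) in F1 females, the 1 member called where 2.83% of all genes were, and this passed in 24 of 24 alternative runs. Averaged over own diets, none of 9 passed in F1 females with limma, where 7.33% of all genes did and 4 members and 22.2% of all genes had an unadjusted p under 0.05.

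In CD-fed F2 females GstD8 read 6.90, 6.74, 6.85 and 7.03 with CD ancestry and 7.33, 7.56, 7.42 and 7.39 with HSD ancestry. The lowest HSD ancestry array stood above the highest CD ancestry array. The rise of 0.54 (SE 0.07, adjusted p = 0.00553), 1.46-fold, passed in 15 of 15 alternative runs. It was 1 of 9 members called, where 1.29% of all genes passed, and leaving out CD ancestry replicate 2 brought the count to 3, with GstD2 (adjusted p = 0.0434) and GstD7 (adjusted p = 0.044).

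GstD7 in these flies read 6.76, 6.81, 6.69 and 6.82 with CD ancestry and 6.98, 7.04, 7.08 and 6.96 with HSD ancestry, apart but short of the threshold (0.24, SE 0.06, adjusted p = 0.0565). GstD5 read 5.81, 6.05, 6.46 and 6.12, and 6.81, 7.10, 6.51 and 6.38. Its arrays overlapped, and the difference of 0.59 (SE 0.16, adjusted p = 0.0914) did not pass. Of 15 female marker genes, egg shell and yolk genes among them, 7 fell in the same comparison, with a mean between 12.54 and 12.88 with CD ancestry and between 12.18 and 12.24 with HSD ancestry. Their part in the GstD8 change was not tested.

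In HSD-fed F2 females none of 7 members tested passed with limma, where 0.79% of all genes did and 1 member and 17.9% of all genes had an unadjusted p under 0.05. That member, GstD3, read 9.41, 9.59, 9.54 and 9.52 with CD ancestry and 9.30, 9.24, 9.32 and 9.29 with HSD ancestry, lower without overlap (-0.23, SE 0.05, adjusted p = 0.0588). It passed under 3 other settings. GstD8 averaged 5.34 ± 0.17 and 5.47 ± 0.08. GstD4, GstD5 and GstD6 were too dim to test there.

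Averaged over own diets, F2 females had 3 of 9 members called, where 9.72% of all genes passed. GstD8 rose by 0.33 (SE 0.06, adjusted p = 0.00285) and GstD7 by 0.17 (SE 0.05, adjusted p = 0.0314), and GstD3 fell by 0.17 (SE 0.04, adjusted p = 0.0263). GstD8 passed in 23 of 23 alternative runs, GstD3 in 16 and GstD7 in 13. After quantile normalization GstD3 did not pass (adjusted p = 0.0626, limma). GstD7 did not pass with 1 fit of 80 arrays (adjusted p = 0.0746) or with a trended robust variance prior (adjusted p = 0.0504). The GstD3 call ended without any 1 of CD-fed CD ancestry replicate 3, CD-fed HSD ancestry replicates 1 and 4, and HSD-fed CD ancestry replicates 2, 3 and 4 (adjusted p 0.0501 to 0.0566). The GstD7 call ended without any 1 of CD-fed CD ancestry replicate 3, CD-fed HSD ancestry replicates 1 and 3, HSD-fed CD ancestry replicates 2 and 4, and HSD-fed HSD ancestry replicates 1, 3 and 4 (adjusted p 0.0519 to 0.0659). The ancestry change did not pass as different between own diets for any member with limma, where 0.167% of all genes passed and 3 members and 10.5% of all genes had an unadjusted p under 0.05.

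In CD-fed F2 males none of 9 members passed with limma, where 2.98% of all genes did and 2 members and 21.5% of all genes had an unadjusted p under 0.05. GstD8 read 8.41, 9.08, 8.74 and 8.81 with CD ancestry and 9.07, 9.03, 9.02 and 9.23 with HSD ancestry. The HSD ancestry arrays lay above 3 of the CD ancestry arrays and around the fourth, and the difference was 0.32 (SE 0.12, adjusted p = 0.13). It passed without CD ancestry replicate 2, the array at 9.08 (0.43, adjusted p = 0.043).

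GstD10 in CD-fed F2 males read 7.65, 7.94, 7.60 and 7.77 with CD ancestry and 7.47, 7.48, 7.55 and 7.40 with HSD ancestry, lower without overlap but not called (-0.27, SE 0.08, adjusted p = 0.0812). In HSD-fed F2 males it averaged 6.99 ± 0.06 and 7.19 ± 0.10. There none of 8 members passed with limma, where 0.201% of all genes did and 2 members and 7.31% of all genes had an unadjusted p under 0.05. The difference between own diets of 0.47 (SE 0.10, adjusted p = 0.036) made GstD10 the 1 member called where 0.917% of all genes were. Without the 3 arrays of HSD-fed F2 males that carried female transcripts the difference was 0.44. Only 1 HSD ancestry array of these males was left there, too few to judge the call. The call ended without any 1 of 11 arrays (adjusted p 0.0503 to 0.0963). These were CD-fed CD ancestry replicate 4, all 4 CD-fed HSD ancestry arrays, all 4 HSD-fed CD ancestry arrays, and HSD-fed HSD ancestry replicates 1 and 3. The mean of female marker genes lay between 4.98 and 5.13 in HSD-fed F2 males of CD ancestry and between 5.68 and 6.49 with HSD ancestry. Averaged over own diets none of 9 members passed in F2 males with limma, where 1.14% of all genes did and 1 member and 18.9% of all genes had an unadjusted p under 0.05.

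**Figure D4:**
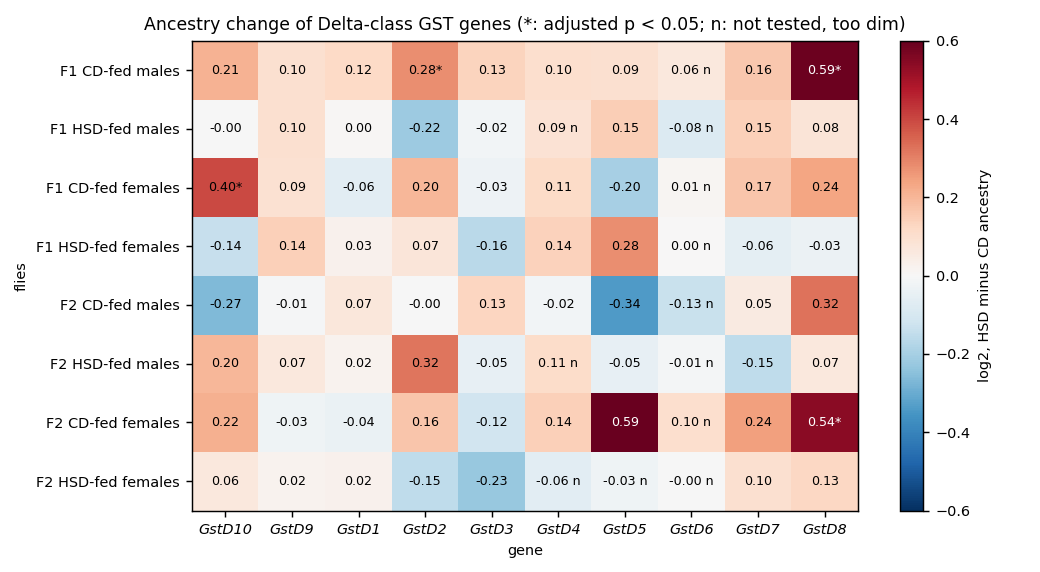
Log2 change with HSD against CD ancestry (colour and printed value) of each gene (columns) in each of 8 comparisons of 4 against 4 arrays (rows); an asterisk marks an adjusted p under 0.05 and n a gene too dim to test. GstD8 has a positive value in 7 of the 8 comparisons, from -0.03 to 0.59, and carries 2 of the 4 asterisks, in CD-fed F1 males and CD-fed F2 females.

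Over the 8 ancestry comparisons the change of GstD8 was positive in 7, with values from -0.03 to 0.59, and passed in 2 of them. GstD1, GstD7 and GstD9 were positive in 6 each and passed in none. GstD3 was positive in 2, from -0.23 to 0.13. The median change of all genes ran from -0.04 in CD-fed F2 females to 0.03 in CD-fed F2 males. That median was negative in both F2 female comparisons and positive elsewhere. How many of all genes were positive as often as these members was not counted. In the order of its 20 group means GstD8 had the highest levels in CD-fed F1 males and CD-fed F2 males of HSD ancestry (9.11 and 9.09), whose arrays overlapped, followed by CD-fed F0 males (8.87). These levels come from separately normalized sets, and by rank within the array the F2 group (69.7% to 74.5%) overlapped the F0 group (69.7% to 70.7%). Its lowest were HSD-fed F2 females (5.47 and 5.34) and HSD-fed F0 females (5.26), each overlapping the next.

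The members were compared with each other by Pearson correlation over the 80 arrays, after each set was centred on its own mean. The points share the F0 diet contrast, which dominates the centred values. GstD2, GstD5, GstD7, GstD8 and GstD10 correlated with r between 0.77 and 0.88 in their 10 pairs. Over the 64 arrays of F1 and F2 alone the same pairs ran from 0.07 to 0.44. Within groups, over the deviations of arrays from their group mean, all 45 pairs of members ran from -0.11 to 0.53 with a median of 0.17, the highest being GstD2 with GstD5.

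The genes most like each member over the 80 centred arrays were found among 11151 others. For GstD8 they were CG13177 (r = 0.93), CG9119 (0.93) and CG5506 (0.92). For GstD2 they were CG4377 (0.92), the metallothionein gene MtnD (0.92) and the storage protein gene Lsp2 (0.91), and for GstD7 CG6283 (0.91), the sarcosine dehydrogenase gene Sardh (0.91) and CG9672 (0.90). For GstD10 they were the serine protease gene Ser6 (0.94), CG15533 (0.93) and CG7381 (0.93). For GstD5 they were GstD2 (0.88), the folate enzyme gene pug (0.86) and CG4377 (0.86), and for GstD9 CG4363 (0.85) and the maltase genes Mal-A7 and Mal-A8 (0.85 each). The genes most like GstD1, GstD3, GstD4 and GstD6 reached at most 0.74, 0.59, 0.63 and 0.46.

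Over the 64 arrays of F1 and F2, without the F0 contrast, the genes most like GstD8 were mex1 (r = 0.74), named for its expression in the midgut, CG5506 (0.65) and CG16986 (0.64). For GstD10 they were Acbp3 (0.72), CG13324 (0.66) and Ser6 (0.65). Of the 30 places in both lists, 3 for each member, 6 were shared.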

How the data were processed

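The authors deposited log2 values made with RMA, 1 for each probe set and array. RMA subtracts background, normalizes arrays and summarizes probes. The submitters' processing notes name RMA and limma without versions and do not say which arrays were processed together, and the genome build behind the probe sets is not given in the sources used here. Of 18952 probe sets, 13647 carried 1 gene symbol in the platform annotation. Those with several symbols (402) or none (4903, controls included) were left out. For a gene with several probe sets (1094 of 11982) the one with the highest mean over 80 arrays was used.

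Comparisons were fitted with limma 3.58.1 in R 4.3.3 (lmFit, contrasts.fit, eBayes, two-sided) on the arrays compared. A gene was tested where its mean in at least 1 group reached the 25th percentile over probe sets. P-values were adjusted by the Benjamini-Hochberg method over all genes tested, with a threshold of 0.05. The fits were tested on simulated data. Figures used Python 3.11.15 and matplotlib 3.10.9. Arrays give no counts, so their number limits the precision.

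All 10 members, all 6 regulators measured and up to 4 called genes of each other list per comparison with the largest changes were eligible to be named, with the 3 genes most correlated with each member. The members and lists were chosen with earlier results of these data known. Same-numbered arrays did not deviate together in all pairs of any comparison (0 of 15), so numbers were not taken as pairs. No sequence is shown. Alternatives were another dim filter (none, or the 50th percentile), quantile normalization, averaging a gene's probe sets, fitting the 80 arrays together, a robust and trended prior on the variance, the replicate number as a block, leaving out single arrays, and leaving out arrays with transcripts of the other sex. The same alternatives for the other gene lists were added after seeing the data.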

Additional observations from a re-analysis of the deposited data

Results flagged for a closer look

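In 9 of 200 combinations of a member and a group, 1 of the 4 arrays stood apart by Dixon's test at the 95% level, and chance gives about 1 in 20. In F0 males these were GstD7 at 6.63 in CD replicate 4 (others 6.92 to 6.98), GstD9 at 10.19 in CD replicate 1 (others 10.30) and GstD10 at 6.82 in HSD replicate 3 (others 6.95 to 6.96). In F1 they were GstD3 at 10.07 in HSD-fed females of CD ancestry (others 9.97 to 9.99), GstD4 at 5.27 in CD-fed males of HSD ancestry (others 4.86 to 4.92), GstD6 at 4.26 in CD-fed females of HSD ancestry (others 3.97 to 4.01) and GstD8 at 8.06 in CD-fed females of CD ancestry (others 7.61 to 7.66). Without that last array the ancestry rise of GstD8 in CD-fed F1 females passed (0.34, adjusted p = 0.0433, limma), against 0.24 (adjusted p = 0.247) with it. In F2 they were GstD8 at 5.35 in HSD-fed females of HSD ancestry (others 5.50 to 5.52) and GstD9 at 9.83 in HSD-fed males of CD ancestry (others 9.98 to 9.99).

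The F0 diet change differed between the sexes, as female minus male, for GstD10 (-1.65), GstD5 (-1.62), GstD2 (-1.47), GstD7 (-0.82), GstD9 (-0.53), GstD1 (0.24) and GstD3 (0.22). After quantile normalization GstD2 (-0.37, adjusted p = 0.18) and GstD7 (-0.32, adjusted p = 0.166, limma) did not pass. For GstD1 every HSD array was also below the CD arrays in males and above them in females.

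The ancestry change differed between own diets, as HSD-fed minus CD-fed, for GstD8 (-0.51) and GstD2 (-0.50) in F1 males and for GstD10 in F1 females (-0.53) and F2 males (0.47). Of 24 alternative runs each, GstD8 passed in 22 and GstD10 in F1 females in 24. GstD2 in F1 males and GstD10 in F2 males passed in 11 each. In F2 males the GstD10 arrays of HSD ancestry were all lower on CD (-0.27) and all higher on HSD (0.20). In CD-fed males GstD10 was higher with HSD ancestry in every F1 array (0.21) and lower in every F2 array (-0.27), a difference of -0.48 that was not tested.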

How the results depend on the processing

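Of 33 calls of a member in a comparison, 22 passed under every alternative run, and 8 were lost when some single array was left out. Another normalization shifted the median of all genes by at most 0.04. In the sex difference of the F0 diet change GstD8 turned from -0.38 to 0.71 after quantile normalization. The cause of the following shifts was not tested. Members called in CD-fed F1 males (2) were 1 with no dim filter, with 1 fit of 80 arrays, with the replicate block and without the arrays that carried female transcripts, and 4 with the trended robust prior. In CD-fed F1 females (1) they were 0 with no dim filter, quantile normalization or the replicate block. In HSD-fed F1 females (0) they were 1 with the 50th percentile filter and 2 with quantile normalization or the trended prior. In CD-fed F2 males (0) they were 2 with 1 fit of 80 arrays. In CD-fed F2 females (1) they were 2 with the 50th percentile filter, quantile normalization or 1 fit of 80 arrays. In HSD-fed F2 females (0) they were 1 with the 50th percentile filter, 1 fit of 80 arrays or the trended prior. Averaged over own diets they were 3 in F1 males with the 50th percentile filter (1 otherwise reported). For the difference between own diets in F1 males (2) they were 0 with 1 fit of 80 arrays or without the arrays with female transcripts and 1 with the replicate block. For the same difference they were 0 in F2 males (1) with the block, and 1 in F2 females (0) with quantile normalization. The replicate block left the other counts within 1.5 times, though it ended the call of GstD1 in F0 females (adjusted p = 0.0922).

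Leaving out 1 array gave 6 to 8 called members in F0 males, 6 to 7 in F0 females and 7 to 8 for the sex difference. It gave 1 to 2 in CD-fed F1 males, 0 to 1 in CD-fed F1 females, 0 to 1 in CD-fed F2 males and 1 to 3 in CD-fed F2 females. Averaged over own diets it gave 1 to 2 in F1 males (2 without CD-fed CD ancestry replicate 1, 2 or 4 or CD-fed HSD ancestry replicate 4) and 1 to 3 in F2 females, where 3 became 1 without HSD-fed CD ancestry replicate 2 or 4 or CD-fed HSD ancestry replicate 1. For the difference between own diets it gave 1 to 3 in F1 males, 1 in F1 females and 0 to 1 in F2 males. It gave 0 in the other comparisons.

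Among the other lists, glutathione transferases called in F0 ranged over the alternatives from 10 to 17 in males and 11 to 16 in females, and in CD-fed F1 males from 0 to 11. Signals of GstD6, of GstD4 in HSD-fed groups, and of GstD5 in HSD-fed females lay at or near the lower end of the scale, which limits the size a fall can show.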
